A study of Homo sapiens with 4 samples.

Results

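The nuclear genes of the respiratory chain were examined in a map of CTCF, a zinc finger protein of chromatin loop anchors and insulators. Members were the autosomal protein-coding genes whose symbols start with NDUFA, NDUFB, NDUFC, NDUFS, NDUFV, UQCR, COX4 to COX8 or ATP5, together with SDHA, SDHB, SDHC and SDHD, without the NDUFAF and SDHAF genes. The rule found 85 genes among 19126 autosomal protein-coding genes, on 21 chromosomes: 36 of complex I, 4 of complex II, 9 of complex III, 16 of complex IV and 20 of complex V. Of these, 2 were readthrough loci, NDUFC2-KCTD14 and ATP5MF-PTCD1, which overlap another member.

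The study mapped chromatin-bound CTCF in MDA-MB-435, an established cell line labelled as melanoma, by chromatin immunoprecipitation and sequencing. Mitotic cells were 2 samples, held in 2 mM thymidine for 24 h, released for 3 h, kept in nocodazole (100 ng/mL) over 16 h and collected by shake-off, and precipitated with a custom rabbit antibody to pT431 CTCF. Asynchronous cells were 2 samples precipitated with a rabbit anti-CTCF antibody from Millipore. The peaks analysed here were those of asynchronous replicate 1, so no comparison between the groups was made, no value has a replicate, and no test was possible. The cell line's identity was not checked, because a peak list holds no expression. That library held 19210460 tags and 42462 peaks of 349 bp, 41313 of them on autosomes.

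The respiratory chain carries electrons from NADH (complex I) and succinate (complex II) through ubiquinone, complex III and cytochrome c to oxygen at complex IV, and complex V, the ATP synthase, uses the proton gradient they build to make ATP. Most subunits are encoded in the nucleus and imported, and the others come from mitochondrial DNA. The nuclear genes are expressed in nearly every cell, and NRF1, the ETS factor GABPA and YY1 are known regulators of many of their promoters. CTCF can lie at active promoters as well as far from genes.

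Sequence at the centre of a peak was read from RefSeq promoters (GRCh38.p14, the build hg38), which cover 250 bases before to 50 after an annotated start. The full 101 bases around the centre could be read for 14 member peaks. Of these, 8 are shown, because they set the strongest promoter peaks of complexes I, III and V beside weak ones of complexes I and II. Capitals mark AGGNGGC, a short form of the CTCF core, on either strand. Each run reads 5′ to 3′ on the strand of its gene, and the lines go from most to fewest tags. The windows are ATP5MC2 at chr12:53676162-53676262 (minus strand), NDUFAB1 at chr16:23596353-23596453 (minus), ATP5ME at chr4:674346-674446 (minus), ATP5MJ at chr14:103921588-103921688 (minus), NDUFB10 at chr16:1959370-1959470 (plus), UQCRC1 at chr3:48609661-48609761 (minus), SDHD at chr11:112086699-112086799 (plus) and NDUFS3 at chr11:47578909-47579009 (plus).
ATP5MC2: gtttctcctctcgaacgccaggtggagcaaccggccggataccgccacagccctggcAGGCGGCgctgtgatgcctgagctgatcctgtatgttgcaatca
NDUFAB1: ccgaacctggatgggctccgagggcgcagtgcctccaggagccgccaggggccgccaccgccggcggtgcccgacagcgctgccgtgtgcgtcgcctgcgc
ATP5ME: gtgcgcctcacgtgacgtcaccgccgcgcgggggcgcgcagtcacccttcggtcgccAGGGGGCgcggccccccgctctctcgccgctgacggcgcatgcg
ATP5MJ: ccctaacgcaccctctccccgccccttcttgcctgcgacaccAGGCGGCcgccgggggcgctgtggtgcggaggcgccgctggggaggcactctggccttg
NDUFB10: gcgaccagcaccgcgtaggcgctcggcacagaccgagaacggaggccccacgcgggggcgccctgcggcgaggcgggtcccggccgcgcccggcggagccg
UQCRC1: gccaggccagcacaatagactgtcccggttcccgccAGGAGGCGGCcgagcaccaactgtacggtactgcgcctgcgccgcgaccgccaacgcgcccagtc
SDHD: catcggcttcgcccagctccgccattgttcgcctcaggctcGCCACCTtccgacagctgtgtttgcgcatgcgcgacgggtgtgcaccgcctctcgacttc
NDUFS3: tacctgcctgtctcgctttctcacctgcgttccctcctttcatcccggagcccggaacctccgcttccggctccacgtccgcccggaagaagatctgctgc

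A CTCF peak centre lay within 1 kb of either annotated end of 32 of the 85 genes (37.6%). Among all autosomal protein-coding genes the share was 28.9%. The Clopper-Pearson 95% interval of the members' share, 27.4 to 48.8%, holds the share of all genes, and it treats genes as independent and covers counting error only. Within 5 kb of an end, 50 members had a peak (58.8%), against 54.0% of all genes. The median distance from a gene end to the nearest peak was 2.52 kb for members and 4.07 kb for all genes. The members' share was the higher one at each of the windows drawn, from 250 bp to 50 kb. By complex, the median distance was 0.422 kb for complex II, 1.51 kb for complex III, 3.37 kb for complex V, 3.65 kb for complex I and 6.96 kb for complex IV. For each complex, the 95% intervals of its shares at 1 kb and at 5 kb hold the shares of all genes.

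**Figure D1:**
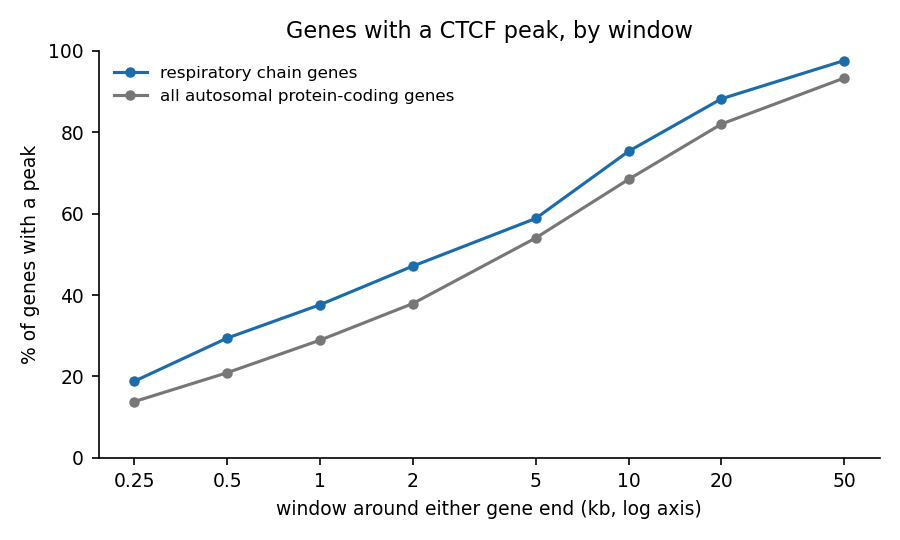
Percent of genes with a CTCF peak centre within a window of either gene end (horizontal axis in kb, log scale), for the 85 respiratory chain genes (blue) and all 19126 autosomal protein-coding genes (grey). The blue line lies above the grey one throughout, with 37.6% against 28.9% at 1 kb and 58.8% against 54.0% at 5 kb.

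Most of the difference at 1 kb lay in peaks of low score. Counting only peaks at or above the list's median score, 39, 14 members had one within 1 kb (16.5%), against 15.6% of all genes. A further 18 members (21.2%) had only peaks below that score, against 13.2% of all genes. Within 5 kb, 24 members had a peak at or above that score (28.2%), against 34.2% of all genes. The Clopper-Pearson interval of the members' share there, 19 to 39%, holds 34.2%. At 1 kb the interval of the 16.5%, 9.31 to 26.1%, holds 15.6%. For peaks at or above that score, members were thus not set apart from all genes in either window. A further 26 members (30.6%) had only peaks below that score within 5 kb, against 19.8% of all genes. Mitochondrial ribosomal protein genes also often had only peaks below that score, 23.4% of them within 1 kb and 28.6% within 5 kb. Such shares were therefore not particular to the members. A peak at or above that score lay within 1 kb of 19.5% of the mitochondrial ribosomal protein genes and within 5 kb of 40.3%. The score is the peak caller's own and is used only to rank peaks within this list.

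Peaks at member ends fell into a few strong ones and many weak ones. Strength is given as normalised tags, the tags expected per peak in a library of 10000000, with an exact Poisson 95% interval. Of the 32 nearest peaks within 1 kb, 8 held at least 50 normalised tags, 6 held 20 to 50 and 18 held under 20. The lowest held 7.55, the median 16.4 and the highest 106.5. Among the 5150 peaks within 1 kb of any autosomal protein-coding gene end the median was 22.6, and 25.1% held at least 50, against the 8 of 32 at member ends. The 95% interval of the median at member ends, 10.4 to 41.1, holds 22.6. Under 20 normalised tags were held by 56.2% of the peaks at member ends and by 46.3% at all gene ends. The focus ratio tells how well tags sit on the side of the centre that their strand predicts. Its median was 0.771 at member ends and 0.816 at all gene ends. The local background, taken as normalised tags divided by the fold over the surrounding 10 kb, was similar, with medians of 1.91 at member ends and 1.87 at all gene ends. The 18 members whose nearest peak lay between 1 and 5 kb had 9.89 to 61.2 normalised tags there, with a median of 19.9.

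**Figure D2:**
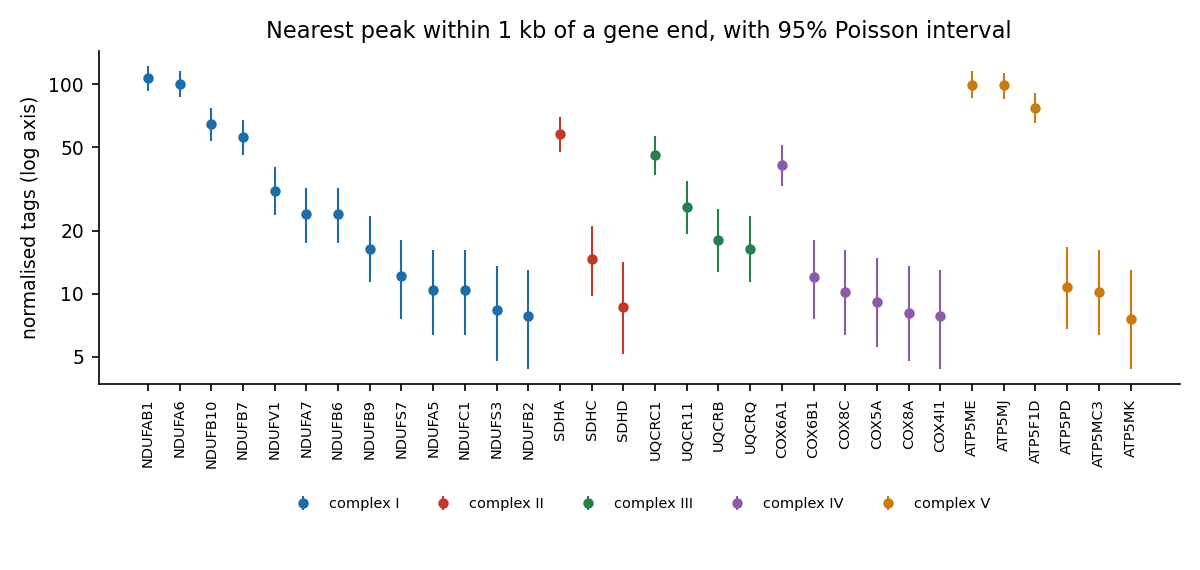
Normalised tags (vertical axis, log scale) of the nearest CTCF peak within 1 kb of an end for 32 respiratory chain genes, coloured by complex and ordered by tags within each. Points are the single library's values and bars are exact Poisson 95% intervals; NDUFAB1 is highest at 106.5 and ATP5MK lowest at 7.55.

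Complex I, the NADH dehydrogenase, had a peak within 1 kb at 13 of 36 genes (36.1%, against 28.9% of all genes). Within 5 kb it had one at 22 (61.1%, against 54.0%). Its core subunits bind the flavin, the iron-sulphur clusters and the quinone, and its accessory subunits surround them. Of the 7 nuclear core genes 3 had a peak within 1 kb, and of the 28 accessory genes 10 did. The strongest peaks stood at accessory genes.

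NDUFAB1, the mitochondrial acyl carrier protein and a complex I subunit (chromosome 16, 23581014 to 23596316), held 106.5 normalised tags (92.6 to 122) in a peak 87 bp upstream of its start. That peak stood 51.4-fold over its surroundings and was the strongest within 1 kb of any member. NDUFA6, an accessory subunit (chromosome 22, 42085526 to 42090772), had 99.9 (86.3 to 115), 246 bp upstream, at 53.2-fold over its surroundings. The intervals of these 2 peaks overlap.

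NDUFB10, an accessory subunit of the membrane arm (chromosome 16, 1959538 to 1961975), had 64.3 normalised tags (53.7 to 77), 118 bp upstream, and a second peak of 13.3 at 2460 bp from its other end. NDUFB7, also of the membrane arm (chromosome 19, 14566078 to 14572066), had 55.7 (45.6 to 67.3), 101 bp upstream, and a second peak of 44.0 at 2299 bp. The intervals of NDUFB10 and NDUFB7 overlap each other and lie below that of NDUFAB1.

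Among the core genes, NDUFV1, whose product takes electrons from NADH, had 31.0 normalised tags (23.8 to 40.2), 34 bp upstream of its start. It was 1 of 2 members with 3 peaks within 5 kb, the further ones holding 34.6 and 28.9. NDUFS7, next to the quinone site, had 12.2, 436 bp upstream, and NDUFS3, in the peripheral arm, had 8.33 (4.76 to 13.5), 115 bp upstream. Each of the 3 core peaks thus lay upstream, and the strongest was below all 4 accessory peaks just given.

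The remaining accessory genes had weaker peaks. NDUFA7 had 23.9 normalised tags 10 bp upstream of its start, and NDUFB6 had 23.9 at 674 bp inside its start. NDUFB9 had 16.4, NDUFC1 and NDUFA5 had 10.4 each, and NDUFB2 had 7.81. The NDUFA5 peak lay at the stop end. Between 1 and 5 kb from an end lay the nearest peaks of NDUFA8, NDUFA11, NDUFS6, NDUFB3, NDUFC2-KCTD14, NDUFA10, NDUFA13 and NDUFB8. Of those named, NDUFA13 had the most, with 61.2 normalised tags 4177 bp beyond its stop end, and NDUFA11 had 52.8.

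The 14 complex I genes without a peak within 5 kb were NDUFS1, NDUFA2, NDUFA3, NDUFS8, NDUFB1, NDUFA12, NDUFV3, NDUFV2, NDUFS5, NDUFB4, NDUFC2, NDUFB5, NDUFA9 and NDUFS4. They included the core genes NDUFS1, NDUFS8 and NDUFV2. NDUFS1 missed the window narrowly, at 5012 bp. NDUFS4, an accessory subunit, was the most remote member of any complex, at 82.1 kb from a peak.

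**Figure D3:**
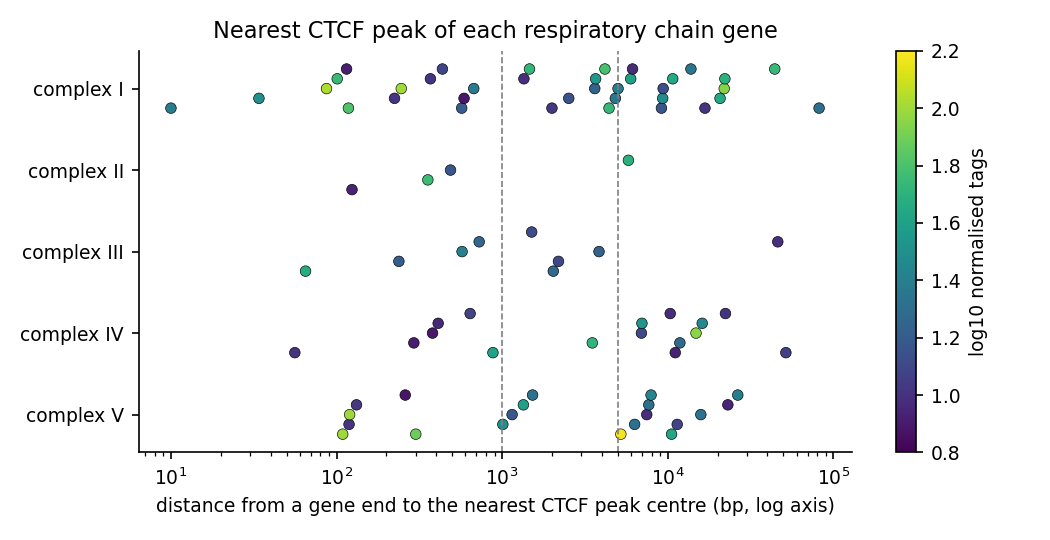
Distance in bp (log axis) from a gene end to the nearest CTCF peak centre for each of the 85 genes, 1 row per complex, coloured by log10 normalised tags of that peak; dashed lines stand at 1 and 5 kb. Points are spread vertically within a row only for legibility. Complex III has 8 of 9 genes left of 5 kb, complex IV has 7 of 16, and the brightest point, ATP5MC2 of complex V, lies just past that line.

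Complex II, succinate dehydrogenase, belongs to both the respiratory chain and the citric acid cycle, and all its subunits are nuclear. A peak lay within 1 kb of 3 of its 4 genes, against 28.9% of all genes. The Clopper-Pearson interval of its share, 19.4 to 99.4%, holds that value. SDHA, the flavin-binding catalytic subunit (chromosome 5, 218320 to 268746), had 57.8 normalised tags (47.5 to 69.6), 356 bp upstream of its start, and a weak second peak of 8.33 near its other end. SDHC, a membrane anchor, had 14.6 (9.69 to 21.1), and SDHD, the other anchor, had 8.59 (5.16 to 14.2), 124 bp upstream. The interval of SDHA lay above those of SDHC and SDHD, which overlapped. SDHB, the iron-sulphur subunit, had its nearest peak at 5.79 kb, with 49.2 normalised tags.

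Complex III passes electrons from ubiquinol to cytochrome c. A peak lay within 1 kb of 4 of its 9 genes (44.4%, against 28.9% of all genes). Within 5 kb 8 had one (88.9%, against 54.0%). UQCRC1, a core protein of the matrix side (chromosome 3, 48599002 to 48609646), had 45.8 normalised tags (36.7 to 56.4), 65 bp upstream, at 21.7-fold over its surroundings. UQCR11, a small subunit, had 25.8, 573 bp upstream. UQCRB, which binds quinone, had 18.0, and UQCRQ had 16.4, 238 bp upstream.

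UQCRH, UQCR10, UQCRC2 and UQCRHL, an intronless copy of UQCRH, had their nearest peaks between 1 and 5 kb, with 12.8 to 18.5 normalised tags. UQCRFS1, the Rieske iron-sulphur protein, stood apart at 46.2 kb. All 9 nearest peaks held less than the 57.8 normalised tags of SDHA.

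Complex IV, cytochrome c oxidase, had a peak within 1 kb at 6 of 16 genes (37.5%, against 28.9% of all genes). Within 5 kb it had one at 7 (43.8%, against 54.0%). Its nuclear subunits surround a catalytic core made in the mitochondrion. COX6A1 (chromosome 12, 120438113 to 120440730) had 41.1 normalised tags (32.6 to 51.3), inside the gene and 880 bp from its stop end, at 21.2-fold over its surroundings. The other 5 were weak: COX6B1 had 12 at its stop end, COX8C 10.2, COX5A 9.11, COX8A 8.07 and COX4I1 7.81. Their intervals overlap one another and lie below that of COX6A1. The median over the 6 peaks was 9.65 normalised tags, the lowest of the 5 complexes.

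Of the 6 genes listed as tissue-restricted isoforms, COX8C, a testis isoform, had its peak 56 bp upstream of its start. COX4I2, a lung isoform, had 51.8 normalised tags at 3504 bp. COX6A2, COX7A1, COX6B2 and COX7B2 had none within 5 kb, and neither had COX7A2L, COX7A2, COX6C, COX5B and COX7C. These 9 genes lay 6.94 to 51.7 kb from a peak. The nearest peak of COX6A2, a heart and muscle isoform, held 90.1 normalised tags but lay 14.8 kb away.

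Complex V, the ATP synthase, had a peak within 1 kb at 6 of 20 genes (30.0%, against 28.9% of all genes). Within 5 kb it had one at 10 (50.0%, against 54.0%). Of the 6 peaks within 1 kb, 3 held 76.8 to 99.2 normalised tags and the other 3 held 7.55 to 10.7. ATP5ME (chromosome 4, 672436 to 674276) and ATP5MJ (chromosome 14, 103912288 to 103921529) encode small subunits of the membrane part. ATP5ME had 99.2 (85.8 to 115), 120 bp upstream, and ATP5MJ had 98.6 (84.9 to 113), 109 bp upstream. Their folds over the surroundings were 46.7 and 46.1, and the tags of the 2 peaks differed by less than their counting error.

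ATP5F1D, the delta subunit of the central stalk (chromosome 19, 1241751 to 1244825), was the other member with 3 peaks within 5 kb. They held 76.8, 86.2 and 65.3 normalised tags, at 301, 1287 and 4225 bp from an end. The local background at the nearest was 10.8, the highest at any peak within 1 kb of a member, and its fold was 7.14. The part of the neighbouring peaks in that background was not tested.

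ATP5PD, of the peripheral stalk, had 10.7 normalised tags 132 bp upstream. ATP5MC3, a c subunit of the rotor ring, had 10.2, and ATP5MK had 7.55, 260 bp upstream. Between 1 and 5 kb lay the nearest peaks of ATP5MF-PTCD1, ATP5MF, ATP5F1B, the catalytic beta subunit, with 39.6, and ATP5PO with 21.3. The genes without a peak within 5 kb were ATP5MC2, ATP5F1A, ATP5MGL, ATP5PB, ATP5MC1, ATP5IF1, ATP5F1C, ATP5PF, ATP5F1E and ATP5MG. They lay 5.21 to 26.5 kb from a peak, and they include the catalytic alpha subunit gene, ATP5F1A, and the inhibitor gene, ATP5IF1.

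ATP5MC2, another c subunit gene of the rotor ring (chromosome 12, 53665170 to 53681423, minus strand), shows what gene ends miss. Its nearest peak lay inside the gene, 5211 bp from an outer end. With 149.7 normalised tags (133 to 168) and 87.4-fold over its surroundings, that peak held more than any within 5 kb of a member end. RefSeq promoters list 3 inner starts of the gene, of which 53676330 and 53676083 were nearest, and the peak centre lay 118 bp inside the first and 129 bp upstream of the second. Counted by any annotated start, 26 of the 68 members with a start in the promoter table had a peak within 1 kb (38.2%), against 27.3% of all genes with one. The members gained were ATP5MC2 and COX7A2L, which had 16.7 normalised tags 465 bp upstream of an inner start.

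Peaks at member ends lay mostly at starts and upstream of them. Strand was known for 68 members, of which 24 had a peak within 1 kb of the start end (35.3%), against 24.8% of all 15101 genes with strand. At the stop end 3 members had one (4.41%), against 6.85% of all genes. The nearest start peak lay upstream for 19 of the 24 members (79.2%), against 55.6% of all genes with a start peak. Within 250 bp upstream lay 14 of the 24 (58.3%), against 32.3%. None of these 24 members had its nearest start peak in the first 250 bp of the gene, against 19.3% among all genes with a start peak. The 17 members without strand are left out of these counts. Among them was ATP5MC3, whose peak lay inside the gene, 119 bp from an end. Among those 24 members, the 5 peaks inside a start end were at NDUFC1, NDUFB2, NDUFB6, COX8A and COX5A, with 7.81 to 23.9 normalised tags. Each of their start peaks over 24 normalised tags lay upstream of the start end. The ATP5MC2 peak, with 149.7, is not counted here, because it lay 5211 bp from the start end. It lay 118 bp inside 1 inner start and 129 bp upstream of another.

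**Figure D4:**
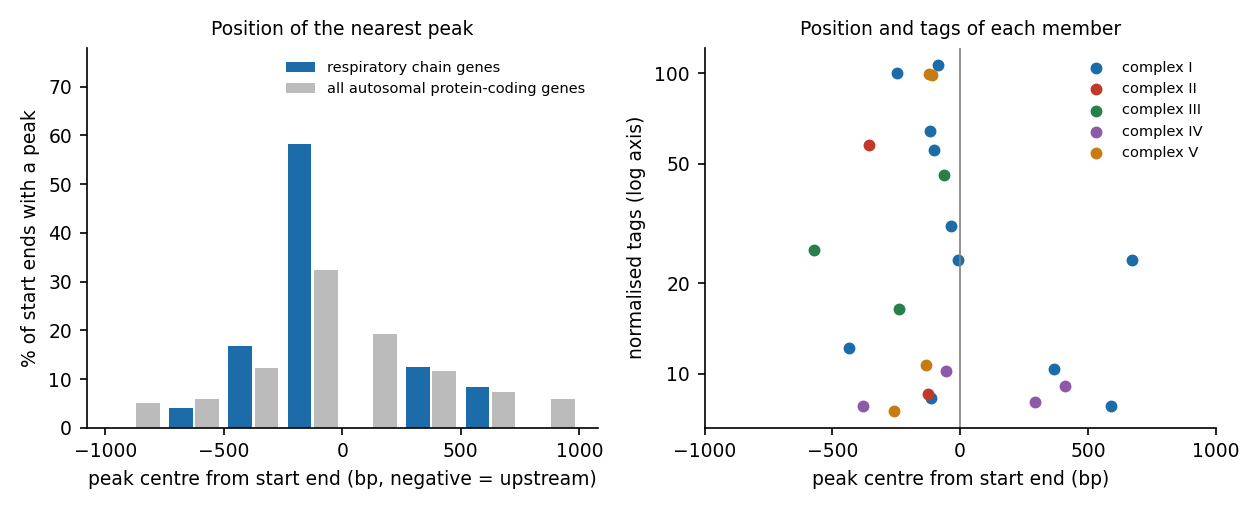
Left, percent of start ends with a peak that have the nearest peak centre in each 250-bp bin (24 respiratory chain genes in blue, 3739 genes in grey; negative is upstream). Right, normalised tags (log axis) against that position for each of the 24 member genes, coloured by complex; 58.3% of the members lie within 250 bp upstream, and the points to the right of the start stay at or below 23.9 normalised tags.

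Start peaks of other housekeeping families also lay mostly upstream, as did 55.6% of those over all genes. Start peaks lay upstream for 17 of 24 mitochondrial ribosomal protein genes (70.8%), 19 of 20 cytosolic ribosomal protein genes (95%) and 9 of 15 proteasome genes (60.0%). The proteasome share was thus close to that of all genes. Within 250 bp upstream lay 5 of these 24 mitochondrial ribosomal, 13 of these 20 cytosolic ribosomal and 6 of these 15 proteasome gene peaks. Over all genes with a start peak that share was 32.3%. The mitochondrial ribosomal share lay below it and the other shares above it, so this closer position was not common to the families. These differences were not tested.

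Many of the peaks were shared with a neighbouring gene. Of the 32 peaks within 1 kb of a member end, 17 (53.1%) also lay within 1 kb of another gene's end, against 31.8% of the 5150 peaks at all protein-coding ends. For 10 of them (31.2%) another end was that of a protein-coding gene, against 14.1%. The strong ones among these were shared by SDHA and CCDC127 and by ATP5ME and MYL5. Weaker ones were shared by SDHD and TIMM8B, a mitochondrial import chaperone gene, by NDUFA7 and RPS28, a ribosomal protein gene, and by NDUFS3 and KBTBD4. The other 5 coding partners were NAA15 at NDUFC1, TATDN1 at NDUFB9, GDF9 at UQCRQ, EMC8 at COX4I1 and PDCD11 at ATP5MK. NDUFA6 and NDUFV1 shared theirs with the divergent noncoding genes NDUFA6-DT and NDUFV1-DT, and the NDUFS7 peak lay beside 2 tRNA genes. The peaks of NDUFB2 and UQCRB lay at antisense genes, that of NDUFA5 at a long noncoding gene and that of COX6A1 at a pseudogene.

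Members with a peak at no other gene's end were 15 of 85 (17.6%), against 17.5% of all genes. Members whose peaks within 1 kb all lay at shared ends were 17 of 85, against 11.3% of all genes. Close neighbours were themselves more frequent: 48 members (56.5%) had another gene's end within 1 kb of their own, against 45.2% of all genes. Among those 48 members 37.5% had a peak, against 34.9% of all genes so placed. Among the 37 members without such a neighbour 37.8% had a peak, against 23.9%. A shared peak cannot be assigned to either of its genes.

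Letters of promoter factors were counted in the 300 bases of the outermost listed start of 68 members, on both strands. The NRF1 motif was in 17 of 68 member promoters, against 8.65% of all 15101. CCGGAAGT, for GABPA, was in 14.7%, against 6.29%, and AANATGGC, for YY1, in 30.9%, against 7.93%. Promoters were then split by a peak within 1 kb of that start, which 25 members had and 43 had not. The NRF1 motif was in 28.0% of member promoters with a peak and 23.3% without, against 12.1% and 7.5% of all promoters so split. The GABPA letters were in 24.0% with and 9.3% without, against 8.4% and 5.59%. The YY1 letters were in 24.0% with and 34.9% without, against 9.22% and 7.5%. Median GC content was 64.3% in member promoters with a peak and 58.0% without, against 67.0% and 61.0% over all promoters, so promoters with a peak were the richer in GC in both sets.

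A longer form of the CTCF core, which can hold AGGNGGC, was in 3 of 68 member promoters (4.41%), against 2.72% of all promoters. AGGNGGC was in 33.8% of member promoters, against 42.1%. Within the 101 bases around a peak centre, AGGNGGC was found at 7 of the 14 member peaks that could be read, against 41.7% of all 1603 such peaks. Over those 1603 peaks the share grew with the score, from 29.6% in the lowest quartile of the list to 49.9% in the highest. In the sequences above, ATP5MC2, ATP5ME, ATP5MJ, UQCRC1 and SDHD hold it. The windows of NDUFAB1 and NDUFB10, with strong peaks, do not hold these letters, and that of SDHD, with a weak one, does. The NDUFAB1 promoter holds them once, outside the 101 bases shown. AGGNGGC was chosen after peak sequences had been seen.

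Other gene families of wide expression had shares close to or above that of the respiratory chain. A peak within 1 kb was found for 33 of 77 mitochondrial ribosomal protein genes (42.9%), 33 of 82 cytosolic ribosomal protein genes (40.2%) and 20 of 49 proteasome genes (40.8%), and the interval of the members' own share holds each of these. Within 5 kb their shares were 68.8%, 68.3% and 61.2%, against the 58.8% of the respiratory chain. Their median distances to the nearest peak were 1.77, 2.4 and 2.78 kb, against 2.52 kb for the respiratory chain and 4.07 kb for all genes.

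Of the other genes of the pathway, 16 of 52 assembly factor genes (30.8%) had a peak within 1 kb, led by COX14 with 95.8 normalised tags, SCO2 with 77 and NDUFAF4 with 63.8. COX14 and SCO2 serve the assembly of complex IV and NDUFAF4 that of complex I. Of 16 citric acid cycle genes 4 had one (25%), with no more than the 17.4 of CS, the citrate synthase gene, then 11.2 at SUCLG1 and 7.81 at OGDH. Of 15 genes of coenzyme Q and cytochrome c 5 had one (33.3%), led by COQ10A with 34.9, PDSS2 with 22.9 and COQ2 with 19. Of 18 genes of regulators and mitochondrial DNA expression 7 had one (38.9%), led by MTERF1 with 151.2 and SSBP1 with 85.4. TFAM, the packaging factor of mitochondrial DNA, came next with 61.4. Among all autosomal protein-coding genes the share within 1 kb was 28.9%. The Clopper-Pearson interval of each of these lists' shares holds that value, so none was set apart from all genes.

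**Figure D5:**
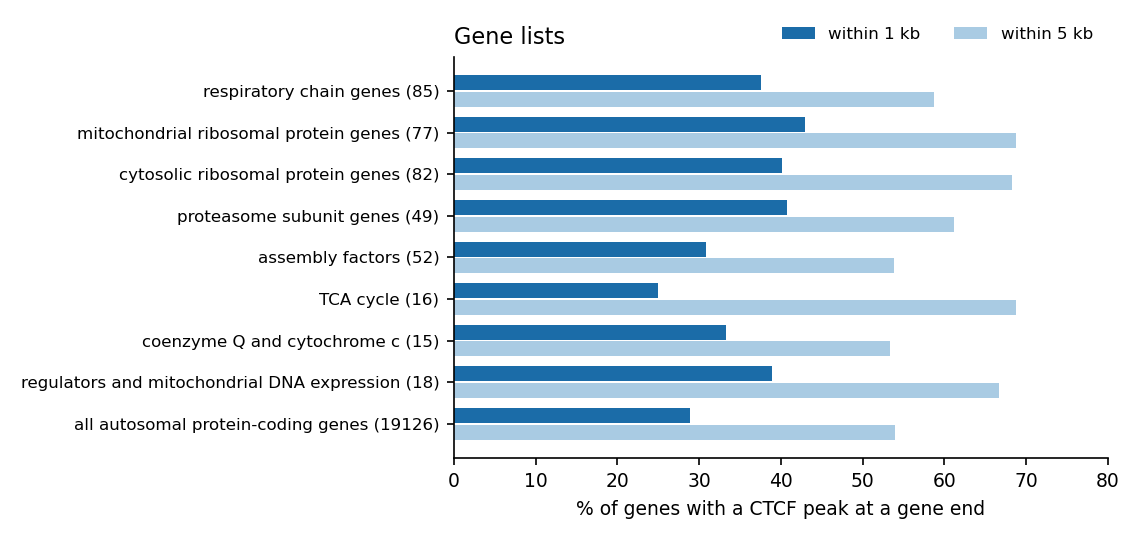
Percent of genes with a CTCF peak centre within 1 kb (dark bars) and 5 kb (light bars) of a gene end, for the respiratory chain genes, other gene lists and all autosomal protein-coding genes, with the number of genes in parentheses. At 1 kb the respiratory chain, at 37.6%, lies between all genes, at 28.9%, and the mitochondrial ribosomal protein genes, at 42.9%.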

How the data were processed

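Asynchronous replicate 1 is the sample whose peaks were used, out of 4 samples in 2 groups, and the other 3 were not analysed here. The submitters' processing notes name Bowtie2, HOMER and hg38. Tool versions were not given in the sources used here. HOMER findPeaks, per the file headers, used its factor style and named no control library, kept peaks at a false discovery rate of 0.001 (a minimum of 15 tags) and 4-fold above the local 10 kb, and counted at most 1 tag per position. How DNA copy number scales the tags was not tested.

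Per the file headers, the deposited tag signal is tags per peak scaled to 10000000. The deposited focus ratio (a fraction), score, fold over the local region (a ratio), clonal fold (a ratio, not used here) and p-value (not used here) are the authors' caller's own. Tags recovered from the 19210460 in the library gave exact Poisson 95% intervals. These cover counting error only.

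Distances ran from peak centres to RefSeq gene ends (GRCh38.p14). Strand and starts came from the promoter table, which matched 68 of 85 members. The 17 others have no strand here. Of pathway genes asked for, 52 of 52, 16 of 18, 15 of 16 and 18 of 18 were found on autosomes. Complexes were assigned by hand. The values of 1 member are not reported here, though it is counted. Every member with a peak within 1 kb is named, the 10 with most tags are given in full, members with none within 5 kb are listed by complex, and at most 3 genes are named per other pathway list. The members and lists were chosen with earlier results of these data known. The distance count was tested on simulated peaks. Distances used pandas 2.3.3 and numpy 2.4.6 in Python 3.11.15, intervals scipy 1.17.1, and plots matplotlib 3.10.9.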

Additional observations from a re-analysis of the deposited data

How the results depend on the processing

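No paired analysis was possible because only 1 of the 4 samples was analysed, so no replicate could be left out either. Counts of genes with a peak within 1 kb moved by over 1.5 times where peaks below the median score were left out: to 14 for members, 2992 for all genes, 7 for complex I, 1 for complex II, 2 for complex III, 1 for complex IV and 3 for complex V. Within 5 kb 24 members were then left, and the median of the nearest peaks was 56.8 normalised tags, by construction of that threshold. With a window of 500 bp complex III had 2 genes, and with 2 kb complex V had 10. Counting only peaks at no other gene's end left 15 members. AGGNGGC, added after seeing the data, was in 23 member promoters, a shorter string than the longer core. Under the other alternatives the counts stayed within 1.5 times: members at 1 kb ran from 24 (start ends, of 68 genes) to 40 (2 kb). The intervals of weak peaks overlap widely, as at NDUFS3 (4.76 to 13.5) and NDUFS7 (7.59 to 18), so their order is uncertain. Where no peak was called, a level is unknown, not 0.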

Other observations

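Some genes of the respiratory chain fell outside the symbol rule. COXFA4L2, formerly NDUFA4L2 (chromosome 12, 57234903 to 57240762), held 261.8 normalised tags (239 to 286) in a peak 1515 bp from an end, more than any member within 5 kb. COXFA4, formerly NDUFA4, had its nearest peak at 42.5 kb. On chromosome X, NDUFB11 had 25 normalised tags at 0.39 kb from an end, COX7B had 12.5 at 212 bp and NDUFA1 had 18.5 at 4359 bp. These genes were looked at after the members' values had been seen.

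Chromosome 19 carried 12 members, of which 6 had a peak within 1 kb (50.0%), against 25.6% of all 1451 protein-coding genes there. On the other autosomes the shares were 35.6% of 73 members and 29.1% of all genes.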
